A study of Mus musculus with 16 samples.

Results

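Rbfox3, Neurod1 and Cntn2, 3 genes of cerebellar granule neuron differentiation, were examined in mouse medulloblastomas of 2 genotypes. The members were all regions of the 6 deposited peak lists that touched 3 fixed windows of mouse build mm9. These windows were chromosome 11 at 118.30–118.82 Mb for Rbfox3 (520 kb), chromosome 2 at 79.23–79.36 Mb for Neurod1 (130 kb) and chromosome 1 at 134.36–134.49 Mb for Cntn2 (130 kb). They held 322 of 209254 listed regions, 235 in the Rbfox3, 26 in the Neurod1 and 61 in the Cntn2 window. The genes were picked with the contrast between genotypes in these lists already known, so each difference between genotypes below is a description and carries no test.

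Tumours were taken at postnatal day 13, either from mice labelled SmoM2 overexpression, in which a constitutively active Smoothened is made, or from mice labelled Sufu;Spop double knockout (DKO), in which Sufu and Spop, both of which restrain Gli factors, are knocked out. Chromatin immunoprecipitation and sequencing (ChIP-seq) with antibodies to Gli2, H3K27ac or H3K36me3 gave 12 libraries, and 4 further libraries were input DNA. Each genotype and antibody had 2 libraries that share 1 deposited list, so no value has a replicate error and the read depth behind a list is unknown. The labels used here give no promoter or Cre line, no tumour-free cerebellum and no word on whether animals were pooled. The lists hold no expression values, so the labelled tissue could not be checked against marker genes.

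In the developing cerebellum, Hedgehog signalling through Smoothened and the Gli transcription factors keeps granule cell progenitors dividing in the outer external granule layer, and medulloblastoma of the Hedgehog class arises from these progenitors. Cells that leave the cycle switch on a neuronal programme as they move inwards. Neurod1 is a basic helix-loop-helix transcription factor needed for granule neurons to form and survive, and such factors bind the E-box. Cntn2 (TAG-1) is an adhesion molecule of the immunoglobulin superfamily, made by young granule neurons as they extend axons. Rbfox3 encodes NeuN, a splicing regulator of mature neurons and the usual marker of their nuclei. H3K27ac is found at active promoters and enhancers, and H3K36me3 is laid down along transcribed gene bodies.

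The promoters of the 3 genes are shown because the acetylated length of all 3 windows was lower in the same genotype. All 3 symbols matched the RefSeq promoter table, which is of build GRCm38.p6, so these sequences could not be placed on the mm9 lists and are not peaks. Each line gives the 250 bases before an annotated start, 5′ to 3′ on the minus strand, with E-boxes (CANNTG) in capitals. For Rbfox3, which has many annotated transcripts, it is the start that the table lists.
Rbfox3, chr11:118761042-118761291, minus strand: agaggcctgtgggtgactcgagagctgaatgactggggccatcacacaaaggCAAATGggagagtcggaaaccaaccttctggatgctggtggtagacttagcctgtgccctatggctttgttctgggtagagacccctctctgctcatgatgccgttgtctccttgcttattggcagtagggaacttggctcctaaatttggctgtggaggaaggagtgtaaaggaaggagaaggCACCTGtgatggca
Neurod1, chr2:79456637-79456886, minus strand: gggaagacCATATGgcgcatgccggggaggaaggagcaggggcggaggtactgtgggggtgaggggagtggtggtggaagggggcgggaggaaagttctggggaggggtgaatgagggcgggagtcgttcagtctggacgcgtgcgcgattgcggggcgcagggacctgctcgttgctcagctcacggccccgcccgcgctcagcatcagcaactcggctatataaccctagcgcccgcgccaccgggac
Cntn2, chr1:132542941-132543190, minus strand: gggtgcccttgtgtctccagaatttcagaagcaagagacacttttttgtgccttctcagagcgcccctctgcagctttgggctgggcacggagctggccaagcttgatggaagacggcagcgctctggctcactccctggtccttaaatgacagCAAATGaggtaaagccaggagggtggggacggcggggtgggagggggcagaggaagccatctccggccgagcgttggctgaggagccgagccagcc

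The Rbfox3 sequence held 2 E-boxes, CAAATG and CACCTG, the Neurod1 sequence 1 (CATATG) and the Cntn2 sequence 1 (CAAATG). Of the 32851 RefSeq promoters of the same length, 66.2% held at least 1 E-box, with a median of 1. The letters GACCACCCA of the Gli consensus, searched on both strands, were in none of the 3 sequences and in 0.225% of all promoters. Neither were the E-boxes CAGATG, present in 14.4% of promoters when searched on both strands, and CAGCTG, present in 4271 promoters. These 2 are special cases of CANNTG and overlap it. The G and C content was 52.8% for Rbfox3, 67.6% for Neurod1 and 61.2% for Cntn2, beside a median of 52.4% over all promoters.

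H3K27ac and H3K36me3 covered fewer bases in DKO than in SmoM2 tumours in all 3 windows, while over the whole lists both marks covered more bases in DKO tumours. The list-wide ratio of bases, DKO over SmoM2, was 1.33 for H3K27ac (18.9 Mb in SmoM2 and 25.2 Mb in DKO tumours) and 1.19 for H3K36me3 (138 Mb and 165 Mb). For H3K27ac the window ratios were 0.738 at Rbfox3, 0.689 at Neurod1 and 0.636 at Cntn2. For H3K36me3 they were 0.617 at Rbfox3, 0.326 at Neurod1 and 0.859 at Cntn2. Of the 6 lists, Gli2 of DKO tumours held 1 peak each in the Rbfox3 and Cntn2 windows and none in the Neurod1 window. Gli2 of SmoM2 tumours held none in any window. The whole Gli2 lists were very unequal, with 148 peaks in SmoM2 and 1426 in DKO tumours, so most places had no SmoM2 peak. In whole tumours, fewer cells with a mark and less of the mark in each cell cannot be told apart.

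To show how common such values are, chromosomes 1 to 19 and X were divided into adjacent tiles of the window lengths, keeping tiles with at least 1 kb of the mark in a genotype. For H3K27ac, DKO bases were below SmoM2 bases in 20.8% of 3056 tiles of 520 kb and in 25.2% of 5972 tiles of 130 kb. For H3K36me3 this was so in 12.3% of 3030 and 16.9% of 7218 tiles. Both marks were lower in DKO tumours together in 4.99% of 2645 tiles of 520 kb and 6.48% of 4534 tiles of 130 kb that carried both. A ratio more than 1.5 times below the list-wide one, as H3K27ac had in all 3 windows and H3K36me3 at Rbfox3 and Neurod1, was found for H3K27ac in 14.7% and 18.8% of the longer and shorter tiles, and for H3K36me3 in 5.45% and 7.36%. The H3K36me3 ratio at Cntn2 was not that far below. Because the genes were chosen on this contrast, the tile shares give scale only.

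**Figure D1:**
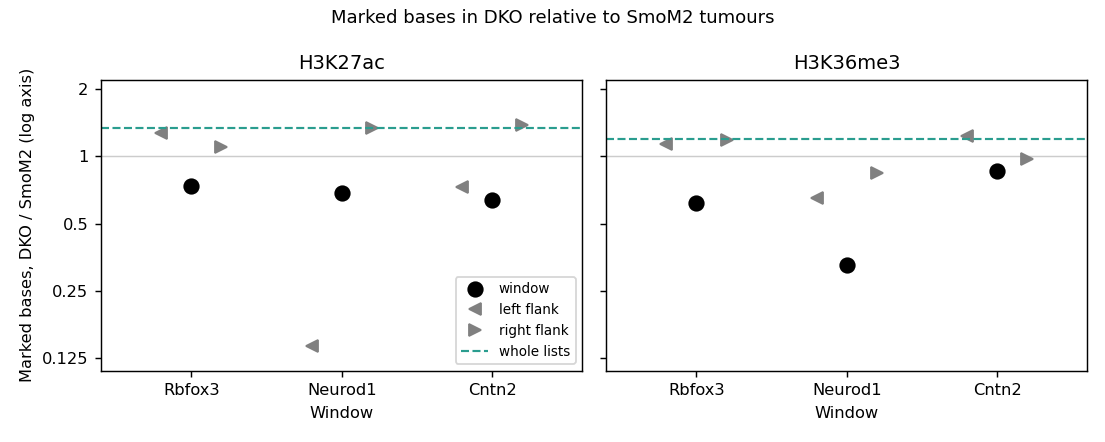
Bases covered by called regions in DKO tumours divided by those in SmoM2 tumours, on a log axis, for H3K27ac (left) and H3K36me3 (right). Black circles are the 3 windows, grey triangles the stretches of equal length directly to the left and right of each, and the dashed line the whole lists (1.33 and 1.19); all 6 circles lie below 1, and the left Neurod1 flank, at 0.142 for H3K27ac, rests on 1.68 kb in SmoM2 tumours.

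At Neurod1, the basic helix-loop-helix factor, acetylation in SmoM2 tumours fell into 12 regions covering 17.6 kb (13.6% of the window). In DKO tumours it fell into 9 regions covering 12.1 kb (9.34%). All 9 DKO regions shared bases with a SmoM2 region, beside 52.7% of all DKO H3K27ac regions. Of the DKO bases in the window, 94.6% were also acetylated in SmoM2 tumours. In this window the DKO pattern was thus almost wholly contained in the SmoM2 pattern. Only 0.653 kb were acetylated in DKO tumours alone, and 6.14 kb in SmoM2 tumours alone. No list-wide share of bases is given, so whether this containment is particular to Neurod1 was not tested. The comparison with 52.7% took no account of width: the median DKO region was 1070 bp here and 483 bp list-wide. At the list-wide ratio, the SmoM2 length would correspond to 23.5 kb in DKO tumours.

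The acetylated bases at Neurod1 lay in 2 stretches when regions at most 10 kb apart were joined, and no region of either mark was called in the window to the right of position 79300667. The right stretch held the widest region of both genotypes. In SmoM2 tumours this was 79294000–79296768 (2769 bp, the authors' fold enrichment 6.51, −log10 q 8.91), which ranked 1050 of 21630 regions by −log10 q. In DKO tumours a region at 79293879–79297751 (3873 bp, fold enrichment 6.08, −log10 q 7.89) spanned that region and reached into the next SmoM2 region, and it ranked 3200 of 29504. Fold enrichment and −log10 q are the authors' values, and ranks in lists of different length show no change between genotypes. The main Neurod1 region was therefore called over a longer unbroken length in DKO than in SmoM2 tumours.

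The lower total at Neurod1 came from the surroundings of that region. In the stretch of 10 kb that holds it, 79290001–79300000, 6.89 kb were acetylated in SmoM2 and 6.57 kb in DKO tumours. Over the 60 kb to its left, 10.1 kb were acetylated in SmoM2 and 5.35 kb in DKO tumours, a ratio of 0.531. The split at this point was chosen after the values were seen. Among those regions, 79253081–79255631 (2551 bp in SmoM2 tumours) was covered over 68.2% by 2 DKO regions, whereas 79238656–79240666 differed little, with 2011 bp in SmoM2 and 1987 bp in DKO tumours. The SmoM2 regions at 79289191–79290254 (1064 bp) and 79250285–79251033 (749 bp) shared no base with a DKO region. In all, 4 of the 12 SmoM2 regions shared no base with a DKO region, with widths of 295 to 1064 bp and −log10 q of at most 3.31. The other 8 (66.7%, Wilson 95% interval 39.1–86.2%) did, beside 73.4% of all SmoM2 H3K27ac regions. This interval covers counting error only and treats neighbouring regions of 1 list as independent. It is no test against the list, since the window was chosen on this contrast.

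H3K36me3 was sparse at Neurod1. In SmoM2 tumours 4 regions covered 1.76 kb and in DKO tumours 1 region covered 0.572 kb. The DKO region, 79294072–79294643, lay inside the SmoM2 region 79294020–79295141 (1122 bp), and both lay inside the main acetylated region of their genotype. The other 3 SmoM2 regions were 142 to 332 bp wide with −log10 q of at most 1.93. With so few bases, the ratio of 0.326 rests on 1 region present in both lists and 3 narrow ones, and it was 0.0890 when regions at most 10 kb apart were joined. RefSeq (GRCm38.p6) orders Itga4 and Cerkl before Neurod1 and Itprid2 after it. Which bases of the window belong to neighbours is not analysed here.

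**Figure D2:**
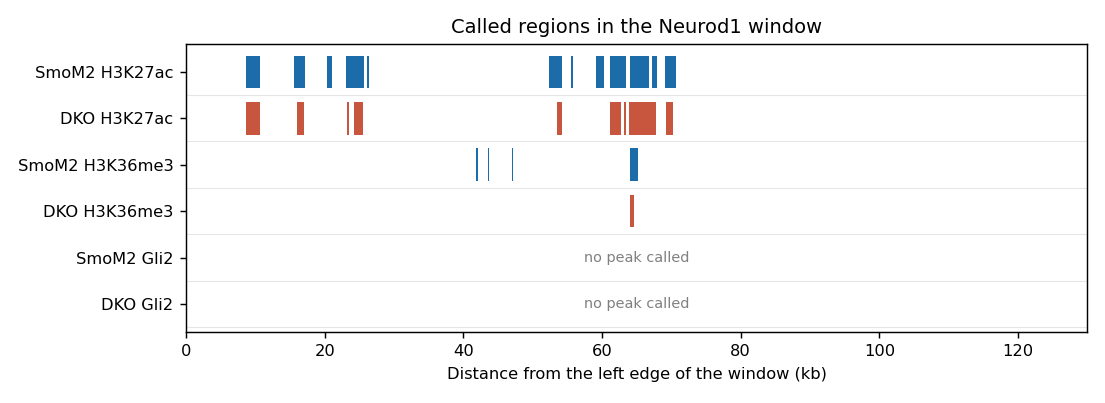
Called regions in the 130 kb Neurod1 window, 1 row per genotype and antibody, with the x axis in kb from the left edge; blue is SmoM2, red is DKO, and bar widths are to scale. Acetylated regions lie in a left and a right group in both genotypes, the red block near 64 kb (3873 bp) is longer than the blue one (2769 bp), and the sole DKO H3K36me3 region lies within it.

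At Cntn2, the adhesion molecule of young granule neurons, 14 H3K27ac regions covered 20.0 kb in SmoM2 tumours and 17 regions covered 12.7 kb in DKO tumours (15.4% and 9.78% of the window). The DKO regions were more numerous but narrower, with a median width of 559 bp against 822.5 bp. Over the whole lists DKO regions were likewise more numerous (29504 against 21630, ratio 1.36) and narrower (median 483 against 523 bp), and the ratio of numbers at Cntn2 was 1.21. Of the DKO bases 80.1% were also acetylated in SmoM2 tumours, while 50.9% of the SmoM2 bases were acetylated in DKO tumours. Several SmoM2 regions were thus represented in DKO tumours by shorter pieces. The 2 shares of bases have no list-wide value beside them, so whether they are particular to Cntn2 was not tested. At the list-wide ratio the SmoM2 length would correspond to 26.7 kb. When regions at most 10 kb apart were joined, the ratio at Cntn2 was 1.01 in place of 0.636, since the pieces in both genotypes span the same stretches.

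The strongest acetylated region of the window was 134464504–134469305 in SmoM2 tumours (4802 bp, fold enrichment 6.16, −log10 q 9.57, rank 861 in its list). In DKO tumours 134465519–134468752 (3234 bp, fold enrichment 5.23, −log10 q 6.08, rank 4893) lay wholly within it. The SmoM2 region 134457069–134459919 (2851 bp) was covered over 49.2% by 3 DKO regions, and 134433852–134436481 (2630 bp) over 43.0% by 1. Of the 1758 bp at 134478102–134479859, 229 bp were acetylated in DKO tumours. In all, 5 of the 14 SmoM2 regions shared no base with a DKO region, the widest being 134424649–134425619 (971 bp) and 134487798–134488362 (565 bp). The other 9 (64.3%) did, beside 73.4% of all SmoM2 H3K27ac regions. Coverage was high at 134438413–134440282 (1870 bp, 90.4%), which nearly equalled the DKO region 134438593–134440400 (1808 bp), and complete at 134373691–134374195, which was 505 bp in SmoM2 tumours and lay within 888 bp in DKO tumours. From 90 kb to 130 kb from the left edge, the acetylated length was 12.4 kb in the SmoM2 list and 7.37 kb in the DKO list, 5.07 kb of the total difference of 7.29 kb. That stretch held 12.4 kb of the 20.0 kb acetylated in SmoM2 tumours, and its ratio was 0.592, beside 0.636 for the window. It was chosen after the values were seen. RefSeq orders Rbbp5 and Tmem81 before Cntn2 and Nfasc after it, so these bases may belong to a neighbour, which was not tested.

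H3K36me3 in the Cntn2 window differed between the left and right parts of a long stretch. Over the window, 17 regions covered 49.6 kb in SmoM2 and 12 regions covered 42.6 kb in DKO tumours, with 38.4 kb common to both. Between 134380001 and 134410000, coverage was 22.8 kb (SmoM2) and 25.0 kb (DKO), a ratio of 1.10, close to the list-wide direction. Between 134410001 and 134440000 it was 21.1 kb and 14.7 kb (ratio 0.694). The boundary was set after the values were seen. Which of these bases lie on Cntn2 and which on a neighbour, such as Rbbp5, Tmem81 or Nfasc, was not analysed. The parts therefore cannot be read as parts of 1 gene.

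The form of the regions also differed between these parts. It comes from the same bases as the coverage above and is no second observation. The widest DKO region, 134382021–134405734 (23714 bp, −log10 q 4.02), overlapped 4 SmoM2 regions on the left side, the widest of which was 134395592–134405050 (9459 bp). On the right side the order was the other way round: the widest SmoM2 region, 134409282–134426409 (17128 bp, −log10 q 3.64), was met by 6 DKO regions that covered 74.7% of it. Further right, beyond 134460001, 4 SmoM2 regions covered 2.37 kb and no DKO region was called, the widest being 134473434–134474568 (1135 bp). Of the 12 DKO regions 11 (91.7%) met a SmoM2 region, beside 68.9% over the whole list. Of the 17 SmoM2 regions 10 (58.8%) met a DKO region, beside 74.8%. The sole DKO region without a SmoM2 counterpart in the window was 189 bp wide.

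**Figure D3:**
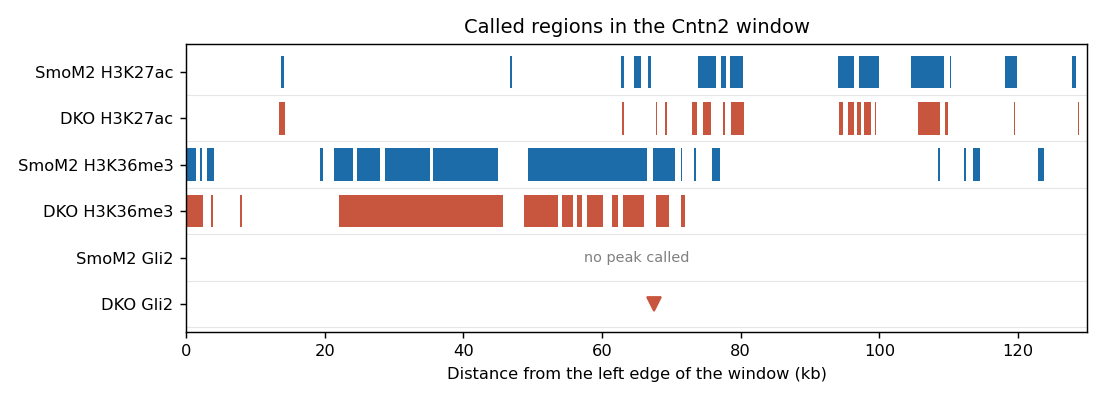
Called regions in the 130 kb Cntn2 window, 1 row per genotype and antibody, with the x axis in kb from the left edge; blue is SmoM2, red is DKO, and the triangle marks the summit of the DKO Gli2 peak. The H3K36me3 block at 22 to 46 kb is unbroken in DKO tumours (23714 bp) and the block at 49 to 66 kb is unbroken in SmoM2 tumours (17128 bp).

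The DKO list held 1 Gli2 peak in the Cntn2 window, at 134427460–134427614 (155 bp, fold enrichment 7.59, −log10 q 10.8), which ranked 949 of 1426. From the deposited fold and −log10 p, its summit held 20 fragments over a local background of 1.77. It overlapped no called acetylated region: the nearest was 149 bases away in DKO tumours (134427764–134427932, 169 bp) and 467 bases away in SmoM2 tumours (134426695–134426992, 298 bp). It lay within an H3K36me3 region of SmoM2 tumours, 134427384–134430524 (3141 bp), and 219 bases from the DKO region 134427834–134429721 (1888 bp). The peak thus lay in the right part of the long H3K36me3 stretch, beside and not under narrow acetylated regions. The nearest SmoM2 Gli2 peak on this chromosome lay 11523 kb outside the window.

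At Rbfox3, the NeuN gene, 36 H3K27ac regions covered 42.6 kb in SmoM2 tumours and 40 regions covered 31.4 kb in DKO tumours (8.19% and 6.04% of the window). The ratio of region numbers was 1.11, below the list-wide 1.36, and the median width fell from 583 bp in SmoM2 to 425.5 bp in DKO tumours. Shared bases made up 53.3% of the SmoM2 and 72.2% of the DKO length, and no list-wide shares of bases are given. Of the SmoM2 regions, 16 of 36 (44.4%, Wilson 95% interval 29.5–60.4%) shared a base with a DKO region, and of the DKO regions 23 of 40 (57.5%, 42.2–71.5%). Over the whole lists these shares were 73.4% and 52.7%. Intervals cover counting error only and treat neighbouring regions as independent. They are no test against the lists, since the window was chosen on this contrast. Regions found in 1 genotype were narrow, with medians of 395 bp for the 20 in SmoM2 and 313 bp for the 17 in DKO tumours.

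The larger part of the difference at Rbfox3 lay towards the right edge of the window, where much of the acetylated length also lay. Between 118730001 and 118790000, H3K27ac covered 20.8 kb in SmoM2 but 13.7 kb in DKO tumours, 7.09 kb of the total difference of 11.2 kb. This stretch thus held 20.8 kb of the 42.6 kb acetylated over the window in SmoM2 tumours. Its ratio was 0.659, beside 0.738 for the window. Between 118600001 and 118660000, 300 kb to 360 kb from the left edge, it covered 10.8 kb (SmoM2) and 10.9 kb (DKO). These stretches were chosen after the values were seen. The middle group of acetylated regions was thus of equal length in both genotypes and the right group was not. RefSeq (GRCm38.p6) orders C1qtnf1 and Engase before Rbfox3 and Enpp7 and Cbx2 after it. Which bases of the window belong to Rbfox3 and which to a neighbour was not analysed.

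The strongest region of the right group, 118765635–118772987, was 7353 bp wide in SmoM2 tumours (fold enrichment 8.56, −log10 q 16.4), and ranked 142 by −log10 q and 111 by width of 21630. In DKO tumours it was represented by 118767282–118771538 (4257 bp, fold enrichment 7.58, −log10 q 12.8, rank 1161 of 29504) and a region of 802 bp, which together covered 68.8% of it. The SmoM2 region 118743210–118748776 (5567 bp) was met by 3 DKO regions covering 60.7%. In the middle group, 118618339–118622852 (4514 bp) in SmoM2 and 118618641–118622906 (4266 bp) in DKO tumours nearly coincided, and the latter was the widest DKO region of the window. The widest regions without a counterpart were 118719206–118720164 (959 bp) in SmoM2 and 118735035–118736381 (1347 bp) in DKO tumours.

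H3K36me3 over the Rbfox3 window was broken into many short regions in both genotypes. In SmoM2 tumours 95 regions covered 84.8 kb and in DKO tumours 63 regions covered 52.3 kb (16.3% and 10.1% of the window). The ratio of region numbers was 0.663 here and 0.706 at Cntn2, beside 0.749 over the whole lists, which held 89482 SmoM2 and 67064 DKO regions. Of the SmoM2 regions 36 of 95 (37.9%, 28.8–47.9%) met a DKO region, and of the DKO regions 41 of 63 (65.1%, 52.8–75.7%) met a SmoM2 region, beside 74.8% and 68.9% over the whole lists. These intervals cover counting error only and are no test against the lists, since the window was chosen on this contrast. Fewer DKO bases in a window also leave SmoM2 regions fewer to meet. Keeping only regions whose −log10 q reached 3, the ratio was 0.311 in place of 0.617. The lower coverage in DKO tumours ran along the window. Of 39 stretches of 10 kb with the mark in either genotype, DKO bases were lower in 30 and higher in 9, beside 30.8% of such stretches genome-wide that were lower.

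The widest H3K36me3 region of the window in SmoM2 tumours, 118350665–118359568 (8904 bp), was met by 4 DKO regions covering 58.0% of it, and 118728536–118733921 (5386 bp) by 2 covering 56.5%. The widest DKO region, 118669001–118673049 (4049 bp), was covered over 92.1% by the SmoM2 region 118668545–118672730 (4186 bp). A DKO region at 118763836–118765364 (1529 bp) without a SmoM2 counterpart was the last H3K36me3 region in the window, and none was called further right in either genotype, where acetylated regions continued. The deposited strengths were low. The mean fold enrichment weighted by bases was 3.35 in SmoM2 and 3.05 in DKO tumours in this window, beside 3.80 and 3.78 over the whole lists.

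**Figure D4:**
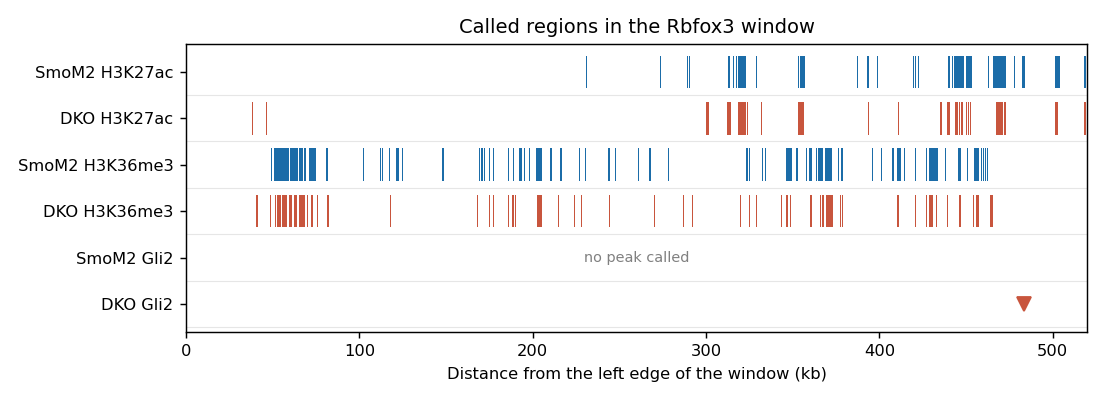
Called regions in the 520 kb Rbfox3 window, 1 row per genotype and antibody, with the x axis in kb from the left edge; blue is SmoM2, red is DKO, and the triangle marks the summit of the DKO Gli2 peak. Acetylated regions lie mainly in the right part of the window, H3K36me3 regions extend from about 40 kb to 465 kb, and 63 DKO against 95 SmoM2 H3K36me3 regions are drawn.

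The Gli2 peak of DKO tumours in the Rbfox3 window was at 118783159–118783364 (206 bp, fold enrichment 12.2, −log10 q 22.0), rank 468 of 1426, with 27 fragments recovered at its summit over a background of 1.30. It lay within an acetylated region of SmoM2 tumours, 118782389–118783782 (1394 bp). In DKO tumours the region at this place was 118782567–118783061 (495 bp) and ended 97 bases short of the peak. These acetylated regions had −log10 q 2.14 in SmoM2 (rank 12669 of 21630) and 1.43 in DKO tumours (rank 28219 of 29504). The DKO region was thus a weak call near the end of its list. Whether its shorter width and the gap of 97 bases set the genotypes apart was not tested. The nearest H3K36me3 regions were 20680 bases away in SmoM2 and 17794 bases away in DKO tumours. The nearest SmoM2 Gli2 peak lay 566 kb outside the window, and the fewest fragments at any called SmoM2 Gli2 summit were 10, so weaker binding would not be listed.

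In the Neurod1 window no Gli2 peak was called, and the nearest was 1802 kb away in DKO and 6379 kb away in SmoM2 tumours. Peaks of DKO tumours without a SmoM2 peak were found in 19.2% of 4108 tiles of 520 kb and 8.65% of 11662 tiles of 130 kb that held any region. A peak in the Rbfox3 and Cntn2 windows is to be read against these shares.

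Stretches of equal length directly beside the windows served as a local comparison. Beside Rbfox3, H3K27ac covered 13.1 kb (SmoM2) and 16.5 kb (DKO) on the left and 16.9 kb and 18.6 kb on the right, ratios of 1.27 and 1.10. H3K36me3 there had ratios of 1.13 (75.8 kb and 85.8 kb) and 1.18 (62.5 kb and 73.9 kb). Both marks thus covered more in DKO tumours on either side of the Rbfox3 window and less within it.

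Neurod1 and Cntn2 differed from this. Left of Neurod1 the ratio was 0.142 for H3K27ac (1.68 kb in SmoM2 but 0.239 kb in DKO tumours) and 0.648 for H3K36me3, and on its right 1.34 (0.581 kb and 0.778 kb) and 0.846. Left of Cntn2 it was 0.730 for H3K27ac (4.86 kb and 3.55 kb) and 1.23 for H3K36me3, and on its right 1.37 (1.35 kb and 1.86 kb) and 0.970. The H3K27ac flanks of Neurod1 held 1 to 4 regions in a genotype and the right flank of Cntn2 2 or 3, while its left flank held 7 in SmoM2 and 6 in DKO tumours.

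The authors' strength of the called regions also varied among the genes. The base-weighted mean fold enrichment of H3K27ac over the whole list was 4.82 in SmoM2 and 5.44 in DKO tumours. In SmoM2 tumours the Rbfox3 window stood slightly above its list mean, at 4.96, and Neurod1 (4.53) and Cntn2 (4.70) below it. In DKO tumours all 3 windows stood below their list mean, Rbfox3 at 4.35, Neurod1 at 4.69 and Cntn2 at 4.33. For H3K36me3 the Cntn2 window had 3.84 in SmoM2 and 3.62 in DKO tumours, and Neurod1 3.11 and 2.84.

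The overlap of the 2 marks within a genotype was a small part of the acetylated bases, and at Neurod1 a large part of the few H3K36me3 bases. At Rbfox3, 3.49 kb carried both in SmoM2 and 1.81 kb in DKO tumours, which was 8.20% and 5.77% of the acetylated bases. At Neurod1 these values were 1.12 kb and 0.572 kb (6.36% and 4.71%), and at Cntn2 2.21 kb and 0.397 kb (11.1% and 3.12%). Over the whole lists the share was 5.14% in SmoM2 and 8.20% in DKO tumours. Of the H3K36me3 bases, 4.12% and 3.47% were also acetylated at Rbfox3 in SmoM2 and DKO tumours, 63.9% and 100% at Neurod1, and 4.46% and 0.931% at Cntn2, beside 0.703% and 1.25% over the lists. The share of acetylated bases also under H3K36me3 was therefore above the list value in all 3 windows in SmoM2 tumours and below it in all 3 in DKO tumours. These shares come from the same lists as the lengths above and are no separate evidence.

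**Figure D5:**
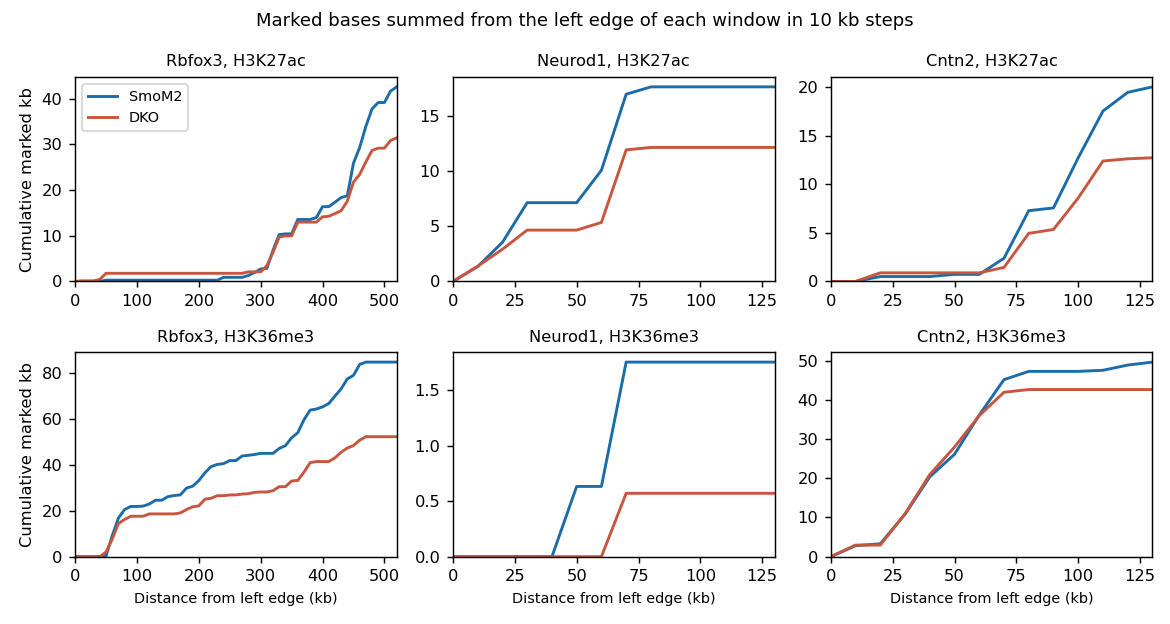
Marked kb summed from the left edge of each window in steps of 10 kb, for H3K27ac (upper row) and H3K36me3 (lower row), in SmoM2 (blue) and DKO (red) tumours. The lines end at 42.6 and 31.4 kb (Rbfox3), 17.6 and 12.1 kb (Neurod1) and 20.0 and 12.7 kb (Cntn2) for H3K27ac, and at 84.8 and 52.3 kb, 1.76 and 0.572 kb, and 49.6 and 42.6 kb for H3K36me3; at Cntn2 they part beyond the first 60 kb for both marks, and at Rbfox3 the H3K27ac lines part mostly beyond 430 kb.

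In steps of 10 kb, DKO tumours had fewer acetylated bases in 18 of 25 marked steps at Rbfox3, 5 of 6 at Neurod1 and 7 of 9 at Cntn2, beside 30.9% of 27173 such steps genome-wide. For H3K36me3 the corresponding counts were 2 of 2 at Neurod1 and 7 of 11 at Cntn2, beside 30.8% of 46095 such steps genome-wide. The 2 steps at Neurod1 held only 634 and 1122 SmoM2 bases, so their count carries little. Steps with more bases in DKO tumours existed at each gene for H3K27ac, 7 at Rbfox3, 1 at Neurod1 and 2 at Cntn2, so the lower totals were not shared by every part of a window.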

How the data were processed

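Gli2, H3K27ac and H3K36me3 ChIP-seq lists of 12 libraries (1 list for each pair) were used. The labels' protocol also names an Olig2 antibody on the beads, so Gli2 lists are named by the antibody given for each sample. The submitters' processing notes name build mm9 and the tools MACS2, BWA, bedtools and Trimmomatic (0.36). Their settings, and how replicates were merged, are not stated in the labels used. The authors deposited start and end positions (and Gli2 summits), a fold enrichment (ratio over the caller's background), p and q values as −log10, and a score of 10 times −log10 q.

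Regions on 21 chromosomes (1 to 19, X and Y) were clipped to the windows and their covered bases summed. Regions were shared when they had at least 1 base in common. Positions are 1-based. Gli2 fragment numbers were solved from fold, taken as (fragments + 1) over (background + 1), and a Poisson upper tail, within 0.01 of −log10 p. On simulated data, 200 of 200 fragment numbers and 5 of 5 window sums were recovered. The fragment numbers were simulated with the same formula, so this checks the computation and not whether the authors' caller used it. In the lists, a solution was found for 148 of 148 SmoM2 and 1425 of 1426 DKO Gli2 peaks. The members and lists were chosen with earlier results of these data known. Regions were named by rule (every Gli2 peak, the 3 widest per window, genotype and mark, the 2 widest in 1 genotype only, the 3 largest joined stretches), many only as counts. Others, such as 79238656–79240666, the smaller pairs at Cntn2 and those nearest the Gli2 peaks, were chosen after their values were seen. No mm9 annotation was used, so exons, introns, and lists of granule neuron genes and cell type markers are not analysed here. RefSeq tables (GRCm38.p6) gave names, order and promoters. Computations used scipy 1.17.1, pandas 2.3.3 and numpy 2.4.6 under Python 3.11.15, and plots matplotlib 3.10.9.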

Additional observations from a re-analysis of the deposited data

How the results depend on the processing

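Of 61 values under alternative settings, 52 stayed within 1.5 times the reported ratio or count, or within the interval of the reported share, 6 moved further and 3 changed direction. Counted as numbers of regions, H3K27ac was above 1, at 1.11 at Rbfox3 and 1.21 at Cntn2, but still below the list-wide ratio of numbers, 1.36. After joining regions at most 10 kb apart, the Cntn2 H3K27ac ratio was 1.01 and the Neurod1 H3K36me3 ratio 0.0890. With −log10 q of at least 3 the Rbfox3 H3K36me3 ratio was 0.311, on 3640 bases in DKO tumours. List-wide ratios of bases are not given under these settings. The remaining ratios stayed below 1, from 0.533 at Rbfox3, 0.661 to 0.936 at Neurod1 and from 0.554 at Cntn2 for H3K27ac, and up to 0.755, 0.372 and 0.928 for H3K36me3. With 50% of a region as the overlap, the SmoM2 shares in both genotypes moved to 25.0% (H3K27ac) and 23.2% (H3K36me3) at Rbfox3 and 35.7% (H3K27ac) at Cntn2, and the DKO share of H3K36me3 at Rbfox3 to 52.4%. Neurod1 H3K36me3 gave no ratio with −log10 q of at least 3 (no region left) or fold of at least 3 (1614 bases in SmoM2, none in DKO tumours). The numbers of Gli2 peaks were the same under all 3 of their alternatives, including windows widened by 50 kb. These could not have changed, since both DKO peaks exceeded the cuts of 5 for fold and −log10 q. The nearest peak outside any window also lay 184 kb away. These values make up 9 of the 52 that stayed and say nothing on how firm the counts are. No paired analysis was possible because replicates 1 and 2 of a group share 1 list, which also kept either from being left out. Read depth is unknown, so a missing region is one not called.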
